A study of Mus musculus with 8 samples.

Results

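The replication-dependent histone genes were taken as all genes on a pair of mouse promoter arrays whose symbol begins with Hist1h, Hist2h, Hist3h or Hist4h. The rule gave 61 of 16908 gene symbols, 9 on promoter array 1 and 52 on promoter array 2. They comprised 6 genes for the linker histone H1, 15 for H2A, 17 for H2B, 11 for H3 and 12 for H4. By cluster, 49 belonged to Hist1 on chromosome 13, 8 to Hist2 on chromosome 3, 3 to Hist3 on chromosome 11 and 1 to Hist4 on chromosome 6. The rule used only names, and 59 of the 61 were matched to a RefSeq gene through their accessions.

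The signal measured was binding of Flag-tagged HoxB4, a homeobox transcription factor that drives expansion of cultured blood progenitors. Mouse embryonic stem cells of the line B6N-22UTR were differentiated as embryoid bodies to day 6, and c-Kit+CD41+ blood precursors were put on OP9 stromal cells with a retrovirus for 3xFLAG-HoxB4. After 12 days on OP9, c-Kit+ progenitors carrying the transgene were collected for chromatin immunoprecipitation (ChIP). Each array compared Flag-IP DNA, in the Cy5 channel, with input DNA, in the Cy3 channel. Both DNAs had been amplified with T7 RNA polymerase. HoxB4 was made from a virus, and no Flag-IP from cells without the tag was analysed here. The arrays hold DNA alone, so the cell type could not be checked against its markers. The 6 expression arrays of the series were not used, since their probe sets are not paired with gene names in the sources used here.

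Replication-dependent histone genes supply the bulk of the histones that package newly made DNA, and their transcription is switched on in S phase. They lie in clusters, carry no introns, and their messages end in a stem-loop instead of a poly(A) tail. H2A, H2B, H3 and H4 form the core of the nucleosome, and H1 binds the linker DNA between cores. H2A and H2B genes often face away from each other across a short promoter that both use. Coding sequences within a core histone type are mostly close to identical. A probe inside such a gene can thus also take up DNA of a related gene.

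The promoter sequences below come from RefSeq, build GRCm38.p6, and run on the gene's strand from 150 bases before the annotated start for 200 bases. They are shown because of the mean signal around the start, among genes with at least 3 probes there. They belong to the highest gene in each type except H2B, and to the lowest in H1, H3 and H4. For H2B, Hist1h2be was higher at 1.84 but has more than 1 promoter in RefSeq, so Hist2h2bb at 1.78 is shown. Capitals mark 4 motifs on either strand. TATAAA is the TATA box of many promoters. CCAAT is the CCAAT box. The octamer ATTTGCAT is known from H2B promoters. The H1 box is AAACACA. Hist1h1a (chr13:23763518-23763717, plus strand) and Hist1h1t (chr13:23695661-23695860, plus strand) encode H1. Hist2h2ab (chr3:96219735-96219934, plus strand) encodes H2A and Hist2h2bb (chr3:96269550-96269749, plus strand) H2B. Hist1h3e (chr13:23562336-23562535, minus strand) and Hist1h3i (chr13:21783348-21783547, minus strand) encode H3. Hist1h4c (chr13:23698409-23698608, minus strand) and Hist1h4b (chr13:23756787-23756986, plus strand) encode H4.
Hist1h1a: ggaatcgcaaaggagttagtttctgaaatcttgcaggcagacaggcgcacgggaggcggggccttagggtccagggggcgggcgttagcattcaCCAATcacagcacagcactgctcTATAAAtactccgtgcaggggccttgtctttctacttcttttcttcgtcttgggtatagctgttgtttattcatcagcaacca
Hist1h1t: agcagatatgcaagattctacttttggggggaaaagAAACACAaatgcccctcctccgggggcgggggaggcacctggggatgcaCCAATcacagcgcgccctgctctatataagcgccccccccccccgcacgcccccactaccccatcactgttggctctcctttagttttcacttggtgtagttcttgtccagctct
Hist2h2ab: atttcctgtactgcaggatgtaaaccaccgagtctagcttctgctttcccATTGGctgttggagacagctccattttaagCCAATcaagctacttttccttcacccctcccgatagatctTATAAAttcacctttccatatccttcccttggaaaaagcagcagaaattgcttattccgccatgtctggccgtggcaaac
Hist2h2bb: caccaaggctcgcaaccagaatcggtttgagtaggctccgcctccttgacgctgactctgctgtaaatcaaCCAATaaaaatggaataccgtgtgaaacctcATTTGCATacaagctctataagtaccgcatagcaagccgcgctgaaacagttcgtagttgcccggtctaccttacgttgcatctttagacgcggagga
Hist1h3e: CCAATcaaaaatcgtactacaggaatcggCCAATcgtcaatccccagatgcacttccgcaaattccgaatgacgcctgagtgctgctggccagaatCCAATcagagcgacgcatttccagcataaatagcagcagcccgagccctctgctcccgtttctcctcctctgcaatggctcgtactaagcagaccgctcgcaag
Hist1h3i: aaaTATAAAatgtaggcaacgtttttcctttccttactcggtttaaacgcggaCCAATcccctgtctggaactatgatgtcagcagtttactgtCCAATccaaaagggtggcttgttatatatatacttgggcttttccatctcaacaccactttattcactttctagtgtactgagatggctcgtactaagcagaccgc
Hist1h4c: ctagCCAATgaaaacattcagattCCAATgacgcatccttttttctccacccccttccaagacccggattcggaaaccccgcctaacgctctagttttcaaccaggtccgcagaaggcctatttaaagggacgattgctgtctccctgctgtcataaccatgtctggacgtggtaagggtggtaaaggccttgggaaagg
Hist1h4b: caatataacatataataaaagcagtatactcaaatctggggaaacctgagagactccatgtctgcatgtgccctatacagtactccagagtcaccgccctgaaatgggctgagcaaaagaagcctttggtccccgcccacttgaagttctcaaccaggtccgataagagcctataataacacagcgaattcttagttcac
Hist1h4b shows no capitals, because none of these 4 motifs lies in the stretch printed.

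Signal is given as log2 of Flag-IP over input, centred on the median of each array, so that 0 is the typical probe and 1 is a 2-fold ratio. A gene's start signal is the mean over its probes within 500 bp of the start. Its highest window is the highest median over 3 neighbouring probes of the gene, whose starts lay at most 1000 bp apart. Each gene was measured on 1 array, so no value has a replicate and no test was possible. The scanner software put the error of a probe's log2 ratio at a median of 0.226 for the histone probes and 0.233 for all probes. This is a spot's own error and leaves out the spread between cultures and immunoprecipitations. Neighbouring probes correlated at 0.569 across the arrays, so probes of a gene are not independent. Of the histone probes, 98.5% stood well above background in Flag-IP and input alike, against 95.3% of all probes on each array.

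The median Flag-HoxB4 signal was higher at histone gene starts than at all gene starts. The start signal had a median of 0.79 over the 58 histone genes with a probe there, and of 0.32 over all 16237 such genes. The histone values ran from -0.63 at Hist1h3i to 2.17 at Hist1h3e. A start signal of 1 or more was reached by 22 of 58 histone genes (37.9%), against 11.5% of all genes. It lay below 0 at 7 of 58 (12.1%), against 26.8% of all genes. Of the 153 distinct probes within 500 bp of a histone start, 56 (36.6%) were at 1 or more. Among probes of all genes the share was 14.5% from -500 to -250 bp and 18.3% from 0 to 500 bp. From -250 to 0 bp it lay between these values. In these shares a probe counts for each gene it belongs to.

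The highest window separated the histone genes less from the rest. Its median was 1.10 over 55 histone genes, with a range from 0.20 to 2.75, and 0.89 over 16663 genes. It reached 1 in 30 of 55 histone genes (54.5%), against 41.7% of all genes. It reached 2 in 5 of 55 (9.09%), against 2.89%. The lowest window was at -2 or less in 3 histone genes (5.45%), Hist1h2aa, Hist1h2ac and Hist1h2ah, against 11.5% of all genes. Histone genes had a median of 19 probes each, whereas all genes had 28, and a gene with more probes has more windows to choose its highest from. The highest window was centred within 1000 bp of the start in 41 of 55 histone genes (74.5%), against 52.7% of all genes. Some histone genes, such as Hist1h3h and Hist2h2bb, have listed probes only within 1000 bp of the start, so their window could lie nowhere else. Within 500 bp the shares were 36.4% and 36.0%.

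**Figure D1:**
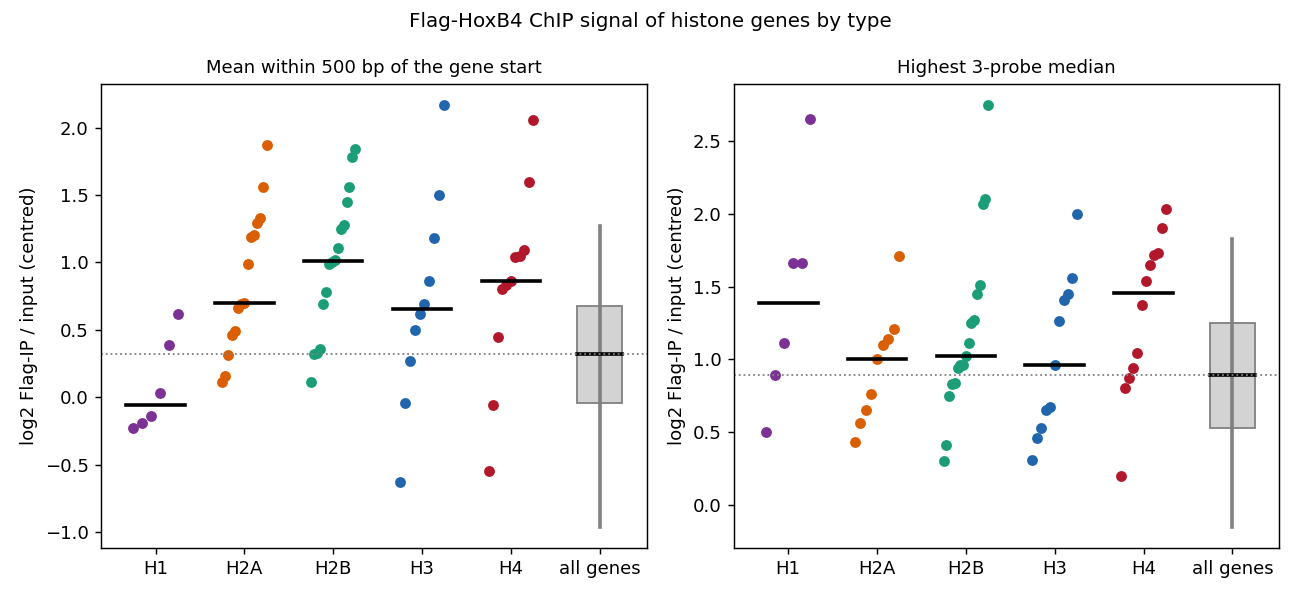
Each point is 1 histone gene, placed by histone type, with its mean log2 Flag-IP over input within 500 bp of the start on the left and its highest 3-probe median on the right. Black bars are medians of a type; the grey box spans the quartiles of all genes, the grey line their percentiles 5 to 95 and the dotted line their median. All 6 H1 points lie below 1 on the left, while Hist1h1c stands at 2.65 on the right.

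Signal at histone genes peaked in the first 500 bp past the start. Some probes of this stretch, such as those of Hist1h4c at 320 and 434 bp, are annotated as downstream of the gene. Probes from 0 to 500 bp past the start averaged 1.14 ± 0.77 at histone genes (SD over 44 probes), and 0.39 ± 0.76 at all genes. In that stretch 22 of the 44 histone probes were at 1 or more, and 18.3% of all probes were. Probes in the 250 bp before the start averaged 0.84 ± 0.73 at histone genes (SD, 77 probes) and 0.31 ± 0.83 at all genes. From 500 to 1000 bp the means were 0.73 ± 0.91 at histone genes (SD, 97 probes) and 0.13 ± 0.83 at all genes. Past 1500 bp and up to 3000 bp the order turned, with -0.28 ± 0.81 at histone genes (SD, 167 probes) and -0.14 ± 0.88 at all genes. Far upstream, from -5000 to -2000 bp, the mean was -0.00 at histone genes and -0.30 at all genes. Brightness was taken as the mean of a probe's log2 Flag-IP and input signals. With the trend of the ratio on it removed the means were -0.06 and -0.08, so that gap did not remain. Since this brightness holds the Flag-IP signal, the step can also remove enrichment.

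**Figure D2:**
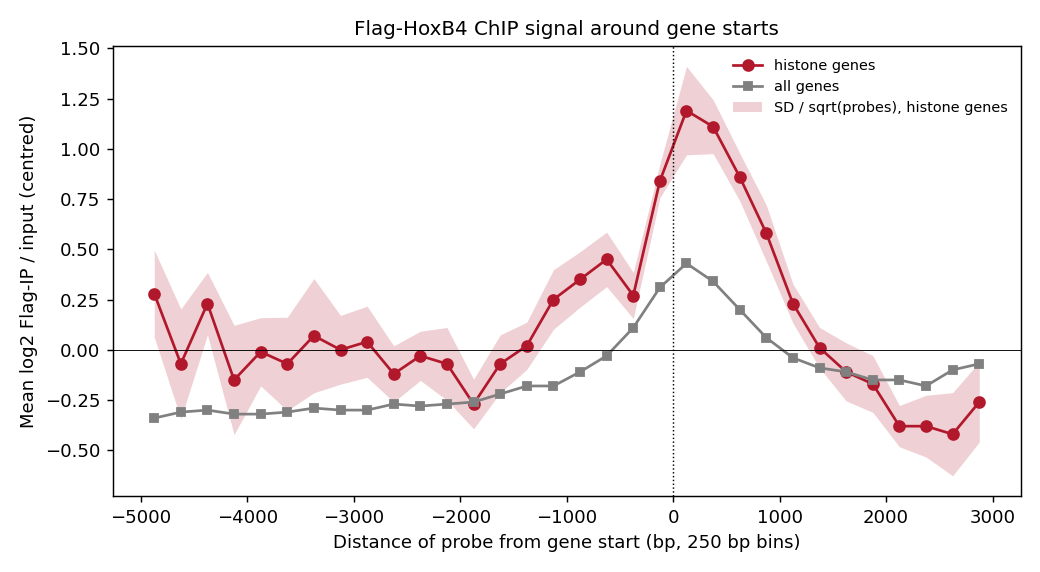
Mean log2 Flag-IP over input in bins of 250 bp by distance from the gene start, for histone genes in red and all genes in grey. The band is SD divided by the square root of the number of probes, which takes probes as independent although neighbours correlate. The red line has its peak in the first 500 bp past the start and drops below the grey line past 2000 bp.

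Input brightness also differed between histone and all probes. The input signal of probes from 0 to 500 bp averaged 9.76 on the log2 scale at histone genes and 10.19 at all genes. Within 500 bp on either side it was 9.88 at histone genes and 10.06 at all genes. The trend of the ratio on the brightness of both channels together was then removed from each array. After that the mean from 0 to 500 bp was 0.87 at histone genes and 0.25 at all genes. After the same step the median highest window was 0.84 for histone genes and 0.81 for all genes. By type it was then 1.03 for H1 and 0.98 for H4, above all genes, but 0.63 for H2A and 0.61 for H3, below them. Of the start signals, 10 of 58 histone genes (17.2%) were then at 1 or more, against 4.72% of all genes. With normexp background correction the count was 20 of 58 (34.5%), against 17.2% of all genes. Uptake of related histone DNA by the probes was not tested. Over probes upstream of a gene's own start, the median start signal was 0.69 for histone genes and 0.26 for all genes. Of the 109 distinct upstream probes within 500 bp of a histone start, 10 lay within 1000 bp past the start of another histone gene, so this step leaves out only part of the transcribed histone DNA. The file can list a probe under a neighbouring gene alone. With every probe counted for each start it lies near, by position, the median start signal was 0.83 for 57 histone genes and 0.32 for all genes, and 25 of 57 (43.9%) reached 1, against 11.4% of all genes.

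The H1 genes differed in shape from the core histone genes. None of the 6 had a start signal of 1 or more, which 11.5% of all genes reached. The median start signal of the H1 genes was -0.06, against 0.32 for all genes. Their highest windows had a median of 1.38, ranged from 0.50 to 2.65, and reached 1 in 4 of 6 (66.7%), against 41.7% of all genes. In the 500 bp before the start the 17 H1 probes averaged -0.04 ± 0.63 (SD), and from 0 to 500 bp the 11 H1 probes averaged 0.35 ± 0.38. From 500 to 1000 bp the 14 H1 probes averaged 1.26 ± 1.24, against 0.13 at all genes. The mean from 500 to 1000 bp was above the start signal in 4 of 5 H1 genes with probes in both, against 40.3% of all genes. Counted by position it was above in 5 of 6, again against 40.3%, and the 17 H1 probes from 500 to 1000 bp then averaged 1.37 ± 1.15. The H1 probes were dimmer than those of all genes, with a log2 input of 9.41 against 9.92 before the start and 9.32 against 9.76 from 500 to 1000 bp. The part of brightness in this shape was not tested.

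Hist1h1c, which encodes a linker histone common in somatic cells, showed the steepest step. Its probes read -0.25 at -399 bp, 0.08 at -157 bp and 0.26 at 18 bp, and then 3.51 at 605 bp, 2.65 at 756 bp and 2.64 at 949 bp. By 1327 bp the probe read 0.06. The file annotates these 5 probes from 18 bp on as inside the gene. The high stretch therefore covered 3 neighbouring probes, with nothing above 0.26 on its upstream side within 1500 bp. The highest window, 2.65, was higher than that of 99.6% of all genes, while the start signal of 0.03 was higher than that of 28.7%.

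Hist1h1d and Hist1h1b, also somatic H1 genes, had the same order of values with smaller steps. Hist1h1d read -1.13 at -334 bp, 0.48 at -158 bp, 0.91 at 37 bp, 2.00 at 590 bp and 1.66 at 799 bp. Hist1h1b read 0.73 at -56 bp, 0.71 at 429 bp, 1.66 at 602 bp and 1.92 at 846 bp. Both had a highest window of 1.66, and their start signals were -0.19 and 0.39. Hist1h1a was the exception, with 0.62 around its start and 0.38 from 500 to 1000 bp. For Hist1h1e the file lists no probe between -136 bp and 1487 bp. Probes listed under its neighbour Hist1h2be lie there by position and read 1.81 at 584 bp, 1.60 at 720 bp and 2.24 at 921 bp past the Hist1h1e start, so this stretch was high as well. The 3 start probes of Hist1h1e lay between -0.20 and -0.02, and the highest window of its listed probes, 1.11, was centred at 1749 bp. Hist1h1t, which encodes the H1 of the testis, had start probes from -0.67 to 0.15, a reading of -1.89 at -1083 bp and a highest window of 0.50.

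**Figure D3:**
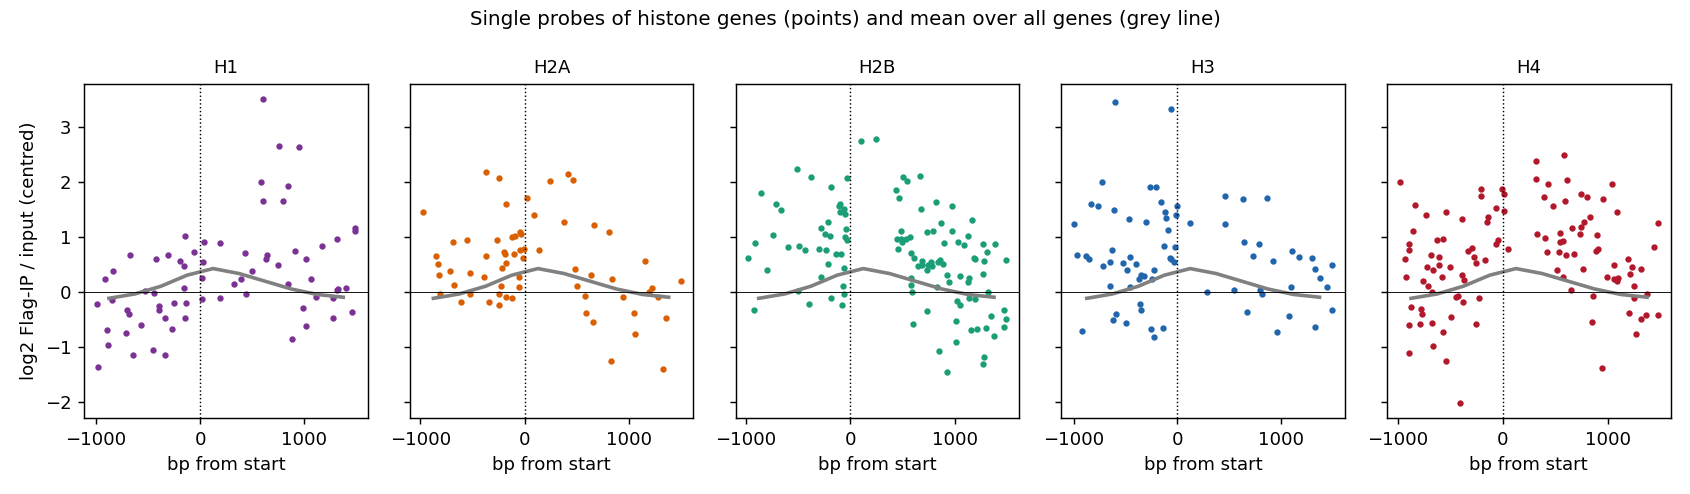
Each point is 1 probe of a histone gene, by distance from the gene start in bp and log2 Flag-IP over input, in a panel for each histone type; the grey line is the mean over all genes. H1 probes scatter around 0 until the high group between 590 and 949 bp, whereas H2A, H2B and H4 probes are already high just past the start.

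By their listed probes, H2A genes had their signal at the start. The median start signal was 0.70 over 15 genes. None lay below 0, against 26.8% of all genes, and 6 of 15 (40.0%) reached 1, against 11.5%. Probes from 0 to 500 bp averaged 1.32 ± 0.74 (SD, 9 probes), and probes from 500 to 1000 bp averaged 0.06 ± 0.77 (SD, 9 probes). In all 5 H2A genes with listed probes in both stretches the start signal was the higher one. Counted by position, with 25 probes, the mean from 500 to 1000 bp was 0.56 ± 0.82, and it was above the start signal in 3 of 12 H2A genes. Hist3h2a led with 1.87, from probes of 1.71 at 25 bp and 2.02 at 236 bp, and its highest window was 1.71. Hist2h2ab had a start signal of 1.33 over 4 probes from 0.73 to 2.19, and a highest window of 1.10. Hist2h2ac had only 2 probes, 0.44 at -219 bp and 2.14 at 409 bp, and thus no window. Hist2h2aa1 had 0.66 from 1 start probe, with a highest window of 1.21 centred at -1373 bp. The third highest window among H2A genes, 1.14 at Hist1h2af, was centred at -2123 bp, and the start signal of this gene was 0.49. The probes of that window also lie 546, 738 and 854 bp past the start of the H4 gene Hist1h4h, so they cannot be given to Hist1h2af alone. At the low end, Hist1h2ah had 0.16 at the start and a highest window of 0.43, and Hist1h2ac had 0.70 and 0.56.

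By listed probes, H2B genes had the highest median start signal of the types, 1.01 over 16 genes. Of these, 8 of 16 were at 1 or more and none below 0. Counted by position H2A ranked first, with a median of 1.19 over 13 genes, ahead of H2B at 1.11 over 17. Listed H2B probes from 0 to 500 bp averaged 1.54 ± 0.79 (SD, 9 probes). Hist2h2bb had the highest window of all histone genes, 2.75, which exceeded that of 99.8% of all genes. Its probes read 0.77 at -436 bp, 1.17 at -278 bp, 1.42 at -51 bp, 2.75 at 107 bp, 2.79 at 242 bp and 2.09 at 504 bp. The values thus climbed toward the gene and stayed high through it, with a start signal of 1.78 over 5 probes.

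Hist1h2be is listed with high probes upstream of its start. It read 2.24 at -513 bp, 2.10 at -373 bp, 1.91 at -184 bp and 1.52 at -58 bp, but 0.63 at 610 bp and 0.18 at 942 bp. Its highest window was 2.10 and its start signal 1.84. The same probes lie past the start of Hist1h1e, the last of them at 1376 bp, so they cannot be given to Hist1h2be alone. With distances by accession the start signal of Hist1h2be was 1.37 over 6 probes. Hist1h2bl read 1.05 at -245 bp, 2.07 at -32 bp, 2.02 at 546 bp and 2.11 at 665 bp, with a highest window of 2.07 and a start signal of 1.56. The other H2B genes of the Hist2 and Hist3 clusters had windows between 0.75 and 1.25. Hist2h2be had a start signal of 0.78 and a highest window of 0.75, and Hist3h2ba had 0.32 and 0.83. Hist3h2bb had no listed start probe and read 0.96, 1.10, 1.25 and 1.57 between 534 and 975 bp, with a highest window of 1.25. The lowest H2B windows were 0.30 at Hist1h2ba and 0.41 at Hist1h2bp.

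Of 153 start probes, 18 served more than 1 histone gene, in 11 pairs of genes, and 10 of these pairs joined an H2A and an H2B gene. Such a pair has 1 measurement and not a value for each gene. The shared probes averaged 1.56 between Hist1h2ai and Hist1h2bl, from probes of 1.05 and 2.07. They averaged 1.19 between Hist1h2ad and Hist1h2bf, 1.00 between Hist1h2ae and Hist1h2bg, and 0.99 between Hist1h2ak and Hist1h2bn. Those pairs lay above the others. The mean was 0.70 between Hist1h2ac and Hist1h2bc, 0.69 between Hist1h2ag and Hist1h2bj, and 0.44 between Hist2h2ac and Hist2h2be. It was 0.22 between the testis genes Hist1h2aa and Hist1h2ba, 0.11 between Hist1h2an and Hist1h2bp, and 0.02 between Hist1h2ah and Hist1h2bk. The pair that joined an H2B and an H3 gene, Hist1h2bh and Hist1h3f, averaged 0.68. Shared H2A and H2B promoters thus ran from near 0 to 1.56, and several of these values rest on 1 probe.

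The start signals of the H3 genes had a median of 0.65 over 10 genes, with 3 at 1 or more and 2 below 0. Hist1h3e had the highest start signal, 2.17, from probes of 1.27 at -307 bp, 1.91 at -201 bp and 3.32 at -59 bp. Further upstream it read 3.45 at -604 bp, 2.00 at -723 bp and 1.60 at -836 bp. Every probe of Hist1h3e within 1000 bp upstream was above 1, and its highest window was 2.00. Hist1h3i had the lowest start signal by the listed probes, -0.63, from probes of -0.56, -0.67 and -0.65, and a highest window of 0.46. With distances by accession it had 4 start probes and -0.23, and Hist1h4b, an H4 gene, was then the lowest at -0.55. All listed probes of Hist1h3e and Hist1h3i within 1500 bp lay upstream.

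Hist1h3g had the second highest H3 window, 1.56, and read 1.64 at -159 bp, 1.56 at -2 bp and 1.23 at 459 bp. Hist1h3h had 4 probes, between 1.33 and 1.91, for a start signal of 1.50 and a highest window of 1.41. Hist1h3c had a highest window of 1.45, centred at -608 bp, and a start signal of -0.04. That window is the same 3 probes as the highest window of Hist1h2bb, whose own start signal was 1.45. Hist1h3d had the lowest H3 window, 0.31, although its probe at -116 bp read 1.45. With windows given to the gene of their middle probe it had 0.77, and Hist1h3i was then the lowest at 0.46. In the Hist2 cluster, Hist2h3c1 had a start signal of 0.50 and a highest window of 0.96 centred at -4973 bp. The probes of that window are also those of Hist2h4 at -272, -387 and -568 bp, so they cannot be given to Hist2h3c1 alone. Probes listed past the Hist2h3c1 start begin at 96332762 on chromosome 3, while those before it end at 96354064, so they come from 2 places. Hist2h3c2 had no start probe and a highest window of 0.65.

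H4 genes had a median highest window of 1.45 over 12 genes, and 8 of 12 (66.7%) reached 1, against 41.7% of all genes. H4 ranked first among the types here, ahead of H1 at 1.38, but not with the brightness trend removed (H4 0.98, H1 1.03), with windows joined over 500 bp (H4 1.32, H1 1.38) or over upstream probes (H4 0.96, H2B 1.17). Their start signals had a median of 0.86 over 11 genes, with 5 (45.5%) at 1 or more, against 11.5% of all genes. Below 0 lay 2 of 11 (18.2%), against 26.8% of all genes. Probes from 0 to 500 bp averaged 1.50 ± 0.55 (SD, 11 probes) and probes from 500 to 1000 bp averaged 0.87 ± 0.80 (SD, 28 probes). In 7 of 10 H4 genes the mean from 500 to 1000 bp was above the start signal, against 40.3% of all genes. Hist1h4c led with a highest window of 2.03. It read 0.32 at -387 bp, 1.75 at -208 bp, 2.38 at 320 bp, 1.96 at 434 bp and 2.03 at 610 bp. Hist1h4a, with a highest window of 1.72, read 1.36 at -145 bp, 1.05 at 326 bp, 1.56 at 474 bp and 2.50 at 588 bp.

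Some H4 values rested on little. Hist1h4k had a start signal of 2.06 from 1 probe at 321 bp, while its probes from -893 to -668 bp lay between -0.98 and -0.39. Hist1h4j had a highest window of 1.90, centred at -1187 bp, and a single start probe of -0.06. Hist1h4f had the third highest H4 window, 1.73, from probes of 1.87 at -210 bp, 1.53 at -62 bp and 1.73 at 395 bp. Hist1h4b was low upstream and higher near the start and downstream of the gene, with -2.01 at -410 bp, -0.57 at -254 bp, 0.94 at -46 bp and 1.28 at 776 bp. The file lists no probe inside Hist1h4b within this range. Its start signal was -0.55 and its highest window 0.94. Hist2h4 had a start signal of 1.04 and a highest window of 1.37, and Hist4h4, the only member of its cluster, had 0.45 and 1.04. The lowest H4 windows were 0.20 at Hist1h4m, which had no start probe, and 0.80 at Hist1h4h. Probes listed under Hist1h2af lie 546, 738 and 854 bp past the Hist1h4h start and read 1.14, 1.59 and 0.63. With windows given to the gene of their middle probe Hist1h4h had 1.14, and Hist1h4d was then the next lowest after Hist1h4m, at 0.87.

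The clusters had similar windows. The median highest window was 1.06 over the 44 Hist1 genes with one, 1.10 over 7 Hist2 genes and 1.25 over 3 Hist3 genes. The median start signal was 0.75 over 48 Hist1 genes, 1.04 over 7 Hist2 genes and 1.09 over 2 Hist3 genes. In Hist1, start signals of 1 or more were found in 17 of 48 genes (35.4%), against 11.5% of all genes. The Hist1 genes form 2 blocks on chromosome 13, one of 18 genes in 337 kb and one of 31 genes in 414 kb. The first block had a median start signal of 0.69 and the second of 0.80. High and low genes were mixed within each block. In the first, Hist1h4k at 2.06 and Hist1h4j at -0.06 are neighbours in the order of starts, and in the second Hist1h3e at 2.17 stands next to Hist1h1d at -0.19. Coordinates of the probes are those of the files, whose genome build was not given in the sources used here.

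**Figure D4:**
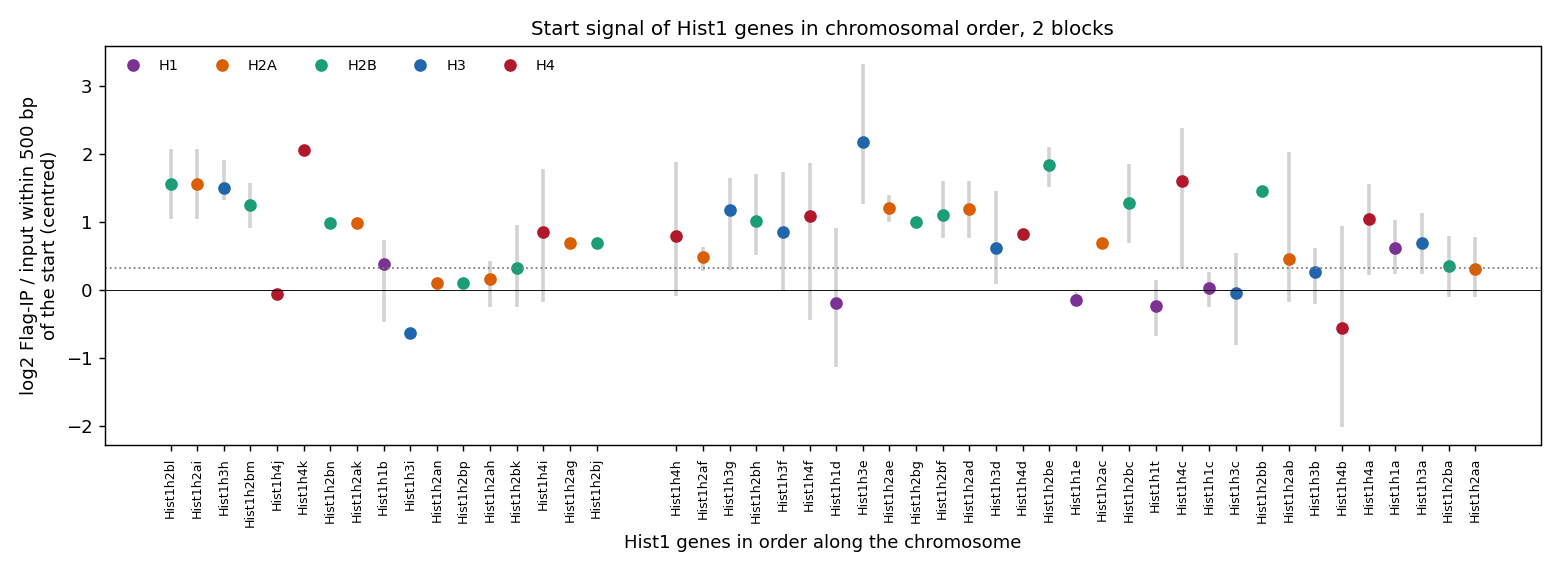
Start signal, as mean log2 Flag-IP over input within 500 bp of the start, of the Hist1 genes in their order along the chromosome, with a gap between the 2 blocks. Points are coloured by histone type, grey lines run from a gene's lowest to its highest start probe, and the dotted line is the median of all genes at 0.32; high and low genes are mixed in both blocks.

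The 3 members known for expression in the testis, Hist1h1t, Hist1h2aa and Hist1h2ba, had no value of 1 or more on either measure. Among all genes 11.5% of start signals and 41.7% of highest windows reached 1, so most genes lay below it as well. The start signals of the 3 testis genes were -0.23, 0.31 and 0.36, and their highest windows were 0.50, 0.76 and 0.30. The start signals of Hist1h2aa and Hist1h2ba were thus close to the median of all genes, 0.32. The window of Hist1h2ba was 0.76 where windows went to the gene of their middle probe. Hist1h2aa and Hist1h2ba share 3 start probes, so these are not 3 separate measurements. Without the testis genes, 22 of 55 histone genes (40.0%) had a start signal of 1 or more and the median was 0.83.

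Several genes lay close to the thresholds. Without centring, 36 of 55 windows reached 1 in place of 30, against 46.5% of all genes. Just below a window of 2 was Hist1h3e, which reached 2.00 only on rounding, and just above it were Hist1h4c at 2.03 and Hist1h2bl at 2.07. Just below 1 were Hist1h2ae, which reached 1.00 only on rounding, Hist1h2bf, Hist1h2bk and Hist2h3c1 at 0.96, and Hist1h2bn and Hist1h4b at 0.94. Just above 1 were Hist1h2bj at 1.02 and Hist4h4 at 1.04. The 6 genes without a window of their own, Hist1h2ad, Hist1h2ag, Hist1h2ai, Hist1h2ak, Hist1h2an and Hist2h2ac, are all H2A genes with 1 or 2 probes. Where a window over any neighbouring probes of the array was given to the gene of its middle probe, all 61 genes had one and 39 reached 1, against 42.6% of all genes, and 6 reached 2, against 3.01%. Of the 58 genes with a start signal, 10 had it from a single probe and 35 from at least 3. Over those 35 the median start signal was 0.62.

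The promoters held the motifs that histone genes are known for. Each motif was searched on both strands from 250 bases before to 50 after the RefSeq start, in the promoters of 54 histone genes and in all 27025 promoters of the table. CCAAT was found in 46 of 54 histone promoters (85.2%), against 37.9% of all promoters, and was in every H1, H2A, H2B and H3 promoter but in 3 of 11 H4 promoters. TATAAA was in 33 (61.1%), against 14.2%. The octamer ATTTGCAT was in 13 (24.1%), against 1.75%, and those were 7 of 14 H2A and 6 of 14 H2B promoters. Within the 100 bases before the start it was in 0 of 14 H2A and 5 of 14 H2B promoters. Paired H2A and H2B genes, such as Hist1h2ae and Hist1h2bg, share promoter DNA, so the same site can count for both. The H1 box AAACACA was in 9 (16.7%), against 7.14%, among them 5 of 6 H1 promoters, Hist1h1a being the sixth. The median base content was 45.0% G and C in histone promoters and 52.7% in all promoters.

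Letters known from Hox binding sites were searched in the same way. TAAT, the core of Hox sites, was in 40 of 54 histone promoters (74.1%), against 58.3% of all promoters. Within the 100 bases before the start the order turned, with TAAT in 13 of 54 (24.1%), against 27.2%. Histone genes with TAAT had a median start signal of 0.70 and those without it 1.04. TAATTA, which holds TAAT on both strands, was in 2 histone promoters (3.70%), against 5.31%. TGATTNAT, a site of Pbx with Hox, was in 3 (5.56%), against 3.36%. Those 3 were Hist1h2aa, Hist1h2ba and Hist1h2ab, with start signals between 0.31 and 0.46. Promoter DNA and 3 start probes are shared by Hist1h2aa and Hist1h2ba, so the same site and signal can count for both. Genes with the octamer had a median start signal of 1.00 and those without it 0.69, and genes with the H1 box had 0.31 and those without it 0.99. These motif groups follow histone type, and a match of letters is not a binding site. The promoter of Hist1h3e, printed above, has 4 CCAAT matches and no TATAAA in its 300 bases, and that of Hist1h3i has 2 CCAAT matches and 1 TATAAA.

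Replication-independent and variant histone genes had a lower median start signal than the replication-dependent ones. Of the 16 listed, 13 were on the arrays. Their median start signal was 0.38, and 2 of 13 (15.4%) reached 1, against 11.5% of all genes. These were H2afx, the H2A variant that marks DNA breaks, at 1.89, and Cenpa, the H3 variant of centromeres, at 1.27. Their highest windows had a median of 1.02, and 7 of 13 (53.8%) reached 1, against 41.7% of all genes. H2afy, which encodes macroH2A, had the highest window of them at 2.03, centred at 2198 bp, ahead of Cenpa at 1.68 and H2afx at 1.60. The lowest were Hils1, a linker histone of spermatids, at 0.49 and H2afy2 at 0.61.

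Genes that act in histone transcription, processing and deposition had a median start signal between these groups. Of 30 listed, 25 were found on the arrays and Npat, the coactivator of histone genes, was not analysed here. The median was 0.58, and 6 of 25 (24.0%) reached 1, against 11.5% of all genes. Their highest windows had a median of 0.94, against 0.89 for all genes, and 12 of 25 (48.0%) reached 1, against 41.7%. Casp8ap2, whose protein FLASH takes part in forming histone message ends, had a start signal of 1.20 and a highest window of 1.35. Mizf, an older symbol of the H4 gene regulator Hinfp, had 0.74 and 1.02, and Slbp, which binds the stem-loop of histone messages, had 0.80 and 0.66. The highest windows were 1.88 at E2f1, a cell cycle transcription factor, 1.78 at Cpsf3, the nuclease that cuts histone messages, and 1.76 at Asf1b, a histone chaperone. The lowest were 0.48 at the histone chaperone gene Nasp and 0.66 at Slbp.

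Other gene sets that dividing cells use had a higher median start signal. The 7 Mcm genes, most of which encode the helicase that opens DNA in S phase, had a median start signal of 1.00, with 3 of 7 at 1 or more, and a median highest window of 1.41. The 79 genes for cytosolic ribosomal proteins had a median start signal of 0.90, with 32 of 79 (40.5%) at 1 or more, and a median highest window of 1.47, with 62 (78.5%) at 1 or more. The histone genes, at 0.79 and 37.9% for the start and 1.10 and 54.5% for the window, were not above these sets on either measure.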

How the data were processed

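Flag-IP (Cy5) and input (Cy3) DNA were measured on 2 Agilent promoter arrays with different probe sets, 1 array each, so no result has a replicate and none was tested. Per the file headers, the deposited intensities are processed signals of Agilent Feature Extraction 10.1.1.1, with background subtracted, spatial trends removed and each dye scaled by 1 linear factor. Mean and background intensities from the same files served the normexp alternative (offset 50, limma 3.58.1 in R 4.3.3). Alternatives used the scanner's log10 ratios and the log10 value tables, both deposited (table medians of 0.0181 and 0.0207, so not centred). The deposited error score of each log10 ratio gave the probe errors.

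The log2 ratio of Flag-IP to input covered 237195 and 237185 probes. Control spots were dropped, as were probes marked as outliers (19 and 38). Ratios were centred on each array's median (0.06 and 0.07), with no loess or quantile step. Median input intensities were 775 and 718, and 0 probes were saturated. Distances to gene starts are those annotated in the files, and a probe can belong to several genes. The number of arrays limits the precision.

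Members are fixed by their symbols, and the rule and all lists were chosen with earlier results of these data known. Values are given in full for the 3 highest and 2 lowest windows of each type, all Hist2, Hist3 and Hist4 genes, testis genes, genes next to a threshold and genes that share a window. Of the lists, the 3 highest and 2 lowest windows are given, with Slbp, Casp8ap2 and Hinfp. Genes named for their start signal or single probes were chosen after their values were seen. RefSeq tables (GRCm38.p6) gave names and promoters. Hist1h2be has more than 1 promoter in the table, and its sequence is not printed. The window step recovered all 200 planted genes among 2000 simulated ones. The 6 expression arrays were not used. Alternatives to signal, centring, brightness trend, background filter, windows and distances are given in the closing section.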

Additional observations from a re-analysis of the deposited data

How the results depend on the processing

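Across the alternatives run, 121 values stayed within the probe error or, for counts, within 1.5 times of the main one, 36 moved further and 0 changed sign. No paired analysis was possible because each promoter was measured on 1 array and no result comes from a test. Removing the brightness trend lowered the median highest window to 0.84 for histone genes, against 0.81 for all genes, and the median start signal to 0.45, against 0.19. Windows at 1 or more then numbered 19 of 55, close to the share among all genes, 33.9%. At 2 or more there were 2 of 55, against 1.09%. The window medians became 1.03 for H1, 0.63 for H2A, 0.61 for H3, 0.98 for H4, 0.82 for Hist1, 0.82 for Hist2 and 0.74 for Hist4, and the mean from 0 to 500 bp 0.87. The window medians of H2A, H3 and Hist4 then lay below that of all genes. Windows of 5 probes gave a median of 0.87, against 0.69, with 19 at 1 or more, against 26.7%, and 3 at 2 or more, against 1.04%. Their medians were 0.79 for H1, 0.49 for H2A, 0.64 for H3, 1.07 for H4, 0.82 for Hist1 and 0.75 for the replication-independent genes. Upstream probes alone left 17 windows at 1 or more, against 24.4% of all genes, and 1 at 2 or more, against 1.52%. Their medians were 0.65 for H1, 0.96 for H4, 0.81 for Hist1 and 0.83 for Hist3, with fewer probes by construction. Some of the 55 histone genes had no window of 5 probes or none over upstream probes alone, so those counts are out of fewer genes. Normexp gave 1.60 for Hist3, 1.87 for Hist4 and 1.19 for the transcription and processing list. The causes of the normexp and trend changes were not tested. Within 100 bases before the start, fewer promoters matched by construction: 19 held TATAAA (35.2%, against 5.95% of all promoters), 5 ATTTGCAT (9.26%, against 0.666%), 2 AAACACA (3.70%, against 2.15%), 13 TAAT (24.1%, against 27.2%), 0 TAATTA (against 1.62%) and 1 TGATTNAT (1.85%, against 1.08%). Some alternatives were chosen after the data were seen. These were windows given to the middle probe's gene, the limit of 3 start probes and single counting of shared probes. Distances by accession and probes assigned by position were the others. They moved no overall median beyond the probe error, although single genes moved further. By position the median start signal of the H2A genes also moved further, from 0.70 to 1.19.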
